A study of Canis lupus familiaris with 17 samples.

Results

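The olfactory epithelium of 17 domestic dogs (Canis lupus familiaris) was divided here by the summed level of 12 features that the count table names for chromosome 5 and a running number. The level is given in CPM, the usual unit of counts scaled to a common library total. Dogs under 2 CPM are called low and dogs over 10 CPM high, so the members were chosen by this measured chromosome 5 sum. The rule placed 7 of the 17 dogs in the low division and 10 in the high division, and no dog lay between them. All 7 low dogs carried the weight label Over_10, and the high division held the 8 dogs labelled Below_10 and 2 of the 9 labelled Over_10. The 2 exceptions are a cocker spaniel of 12.247 kg (Over_10 replicate 2, labelled age 9, batch 2, scent code 0) and a young Labrador retriever of 20.4 kg (Over_10 replicate 6, labelled age 0.5, batch 5, scent code 1). The question followed here is whether these 2 dogs resemble the small dogs in the other features of the table, those with Ensembl-style gene IDs.

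The study relates gene expression in this tissue to olfaction, and measured polyadenylated RNA of 1 library per dog by paired-end sequencing. The dogs were untreated as far as the labels say and differed in breed, weight, age (unit not labelled), a scent code of 0 or 1 that is not spelled out, RNA integrity number (RIN) and a batch of 1 to 6 whose nature is not spelled out. The Below_10 dogs were 2 dachshunds, a Pomeranian, a Jack Russel Terrier, a miniature schnauzer, a Chinese crested, a poodle and a rat terrier, of 5 to 9.79 kg and labelled age 4 to 14. The low dogs were a Doberman pinscher, a beagle, a bulldog terrier, a German shepherd, an English pointer, a basset hound and an older Labrador retriever (labelled age 6), of 10.21 to 44 kg and labelled age 3 to 14. Each breed stands for a single dog apart from the dachshunds and the Labradors, so breed and dog cannot be told apart. With 1 library per dog, the spread between dogs also holds that of dissection and extraction, and p-values measure this spread.

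The olfactory epithelium is the sheet of the nasal cavity that holds the odour-sensing neurons, with supporting cells, glands and the basal cells from which neurons are replaced through life. A mature olfactory neuron as a rule transcribes a single member of the large olfactory receptor gene family. RNA of any given receptor is therefore rare in the whole tissue, and receptor genes lie in clusters on several chromosomes. In bulk tissue, fewer cells of a type and less RNA per cell cannot be told apart. The tables carry no gene names, and 0 of the Ensembl-style IDs matched the RefSeq gene table at hand. The tissue was therefore not checked against its marker genes, and no feature is given a function below. Reads of near-identical or overlapping genes may be split between features, and the sources used here do not say whether counting used strand.

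Library totals ran from 10536639 to 31637925 counts, and the 2 exceptions were among the 3 deepest libraries, with 29240086 counts in the cocker spaniel and 20809138 in the young Labrador. Both carry a mark of first replicate in their library names, as do the dachshund of replicate 1 in Below_10 and the beagle of replicate 3 in Over_10, 4 libraries in all. By the protocol, RNA of 4 unnamed samples came from more than a single extraction batch, and whether they are these 4 is not labelled. Of all counts in the cocker spaniel, 19.8% fell on its 10 most abundant features, with 26.5% in that dachshund, 18.2% in the Pomeranian and 5.94% to 10.3% in the other dogs. These 3 libraries had the lowest scaling factors (trimmed mean of M-values, TMM; 0.757, 0.518 and 0.727), and results that rest on them are given with and without them.

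The chromosome 5 level chose the divisions and is a description. In the low dogs the 12 features together had 4 to 17 reads, from 0.316 CPM in the beagle (4 reads, 95% Wilson interval 0.123 to 0.812) to 1.39 CPM in the basset hound (17 reads, 0.868 to 2.23). In the high dogs they had 166 to 1103 reads. The cocker spaniel was the lowest of these with 13.4 CPM (392 reads, 12.1 to 14.8), and the Pomeranian the highest with 104 CPM. The young Labrador had 23.7 CPM (21.7 to 25.9). The dogs just inside the thresholds were thus the basset hound and the cocker spaniel, and the intervals, which cover counting error only, do not meet. Low is not absent: each low dog had reads on 2 to 6 of the 12 features, against 11 or 12 in every high dog. Every one of the 12 features had more reads over the 10 high dogs than over the 7 low dogs, from 46 against 2 to 1608 against 15.

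**Figure D1:**
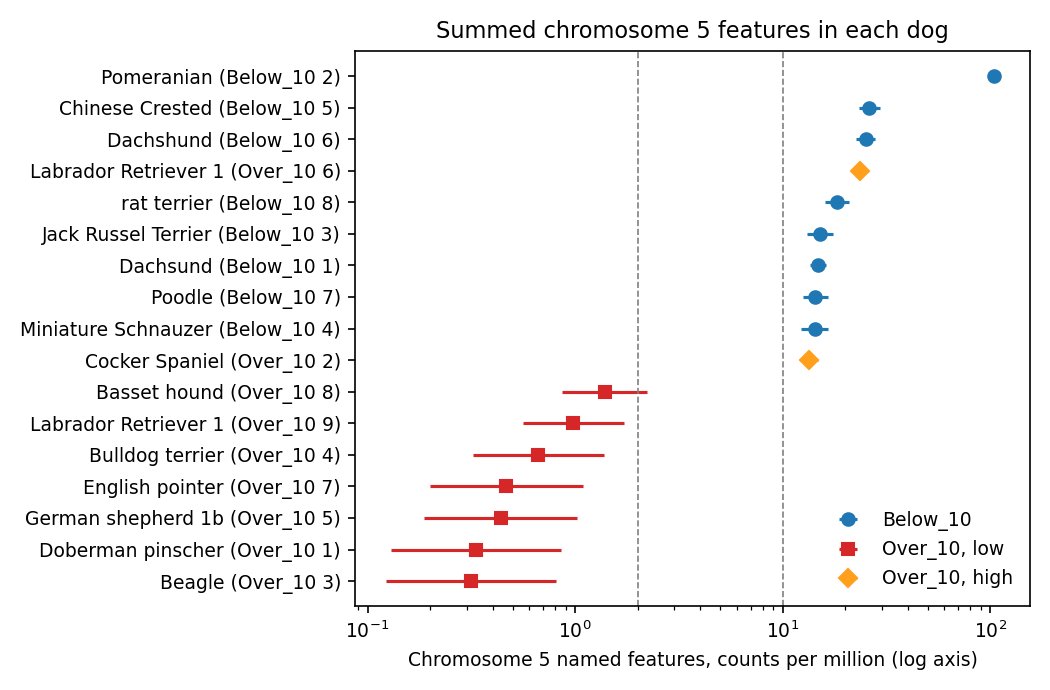
Summed CPM of the 12 chromosome 5 features in each dog on a log axis, with 95% Wilson intervals as bars and the thresholds of 2 and 10 CPM as dashed lines. Colours mark weight class and division. The 7 low dogs reach at most 1.39 CPM and the 10 high dogs start at 13.4 CPM.

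Weight, age, RIN and library total took no part in the division, apart from the total as its denominator. Low dogs weighed 27.8 ± 10.5 kg (SD, n = 7) and high dogs 9.47 ± 4.34 kg (n = 10), a difference of 18.3 kg (two-sided exact permutation p = 1.54e-04 over 19448 splits, adjusted over 4 tests 6.17e-04). On batch-centred values the difference was 15.9 kg (exact permutation p = 0.00417 over 240 splits that keep the numbers of each batch, adjusted p = 0.0167), and 0.00417 is the smallest p these splits can give. Low dogs were heavier by 23.1, 12.3, 24.5 and 23.1 kg in batches 2, 3, 4 and 6, the 4 batches that hold both divisions. The beagle, at 10.21 kg the lightest Over_10 dog, was low, so the order of weights does not give the division within Over_10. No difference was shown for age, 7.57 ± 3.95 (n = 7) against 7.35 ± 4.04 (n = 10; exact permutation p = 0.932), or RIN, 8.00 ± 0.493 against 8.10 ± 0.902 (n = 7 and 10; exact permutation p = 0.821). The log2 library total was 23.5 ± 0.103 in low and 23.9 ± 0.589 in high dogs, which did not pass (n = 7 and 10; exact permutation p = 0.101, adjusted p = 0.201). Of the low dogs 3 carried scent code 0 and 4 code 1, and of the high dogs 7 and 3. That weight class goes with the chromosome 5 level was known when the division was proposed.

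A set of Ensembl-style features was on (at least 5 reads) in the small dogs and off (fewer than 5) in the low dogs, and both exceptions had nearly all of it on. With random thinning of all libraries to a total of 10536639 counts, 48 of 32704 Ensembl-style features (0.147%) had at least 5 reads in all 8 Below_10 dogs and fewer than 5 in all 7 low dogs. The reverse pattern, on in the low dogs and off in the small dogs, was met by 1 feature (0.00306%). Equal totals do not give equal depth over the other features in the 3 libraries with low TMM factors. There 15669 Ensembl-style features had at least 5 reads in the dachshund of replicate 1, 16541 in the cocker spaniel and 16563 in the Pomeranian. The young Labrador, with a TMM factor of 1.13, had 17486. The cocker spaniel and the young Labrador had no part in choosing the 48. In the dogs that chose them, however, weight class and the chromosome 5 division coincide, and both exceptions were picked for high chromosome 5 sums. Siding with the small dogs and sharing their chromosome 5 level thus cannot be told apart here. Whether any of the 48 overlap the chromosome 5 features was not checked. The young Labrador had at least 5 reads for 47 of the 48 (97.9%) and the cocker spaniel for 43 (89.6%). Both dogs had 42 on, 5 were on in the young Labrador alone, 1 in the cocker spaniel alone, and 0 were off in both. Only 1 Ensembl-style feature had at least 5 reads in all high dogs and 0 in all low dogs, so off means few reads rather than none.

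The same count was made for each other dog, with the set chosen anew without that dog. Each of the 8 Below_10 dogs had 81.4% to 96.0% of its set on, with a median of 94.1%, in sets of 50 to 59 features. The count on in each was 48, as a feature on in the dog that was left out belongs to the original set. Among the 7 low dogs the share was 0% to 21.3% with a median of 4.00%, in sets of 48 to 61 features. The highest low dog was the basset hound with 13 of 61, which was also the low dog with the most chromosome 5 reads. Both exceptions thus lay at the level of the Below_10 dogs, and the classes did not overlap.

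The same held within a batch and within a breed name. In batch 2 the Doberman pinscher had 0 of 48 on, whereas the cocker spaniel had 43 of 48, the Jack Russel Terrier 48 of 55 and the miniature schnauzer 48 of 51. Between the 2 dogs labelled as Labrador retrievers, the young one (20.4 kg) had 47 of 48 on and the older one (44 kg, batch 6) 0 of 48. The young Labrador is the only dog of batch 5 and by far the youngest, so batch, age and dog cannot be told apart for it.

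Summed without thinning over the 48 features, the level was 75.6 CPM in the cocker spaniel and 121 CPM in the young Labrador. Each over its own set, the Below_10 dogs had 72.7 to 455 CPM (median 95) and the low dogs 0.917 to 18.1 CPM (median 3.87). The Pomeranian had the highest sum, as for the chromosome 5 features. Both exceptions lay inside the Below_10 range and above every low dog. With a minimum of 3 reads 57 features made the set, of which the cocker spaniel had 82.5% on and the young Labrador 100%. With 10 reads there were 33, of which they had 93.9% and 90.9%. Without the 2 Below_10 dogs of batch 1 the set grew to 61 features, of which they had 78.7% and 96.7%. The 78.7% of the cocker spaniel is under the Below_10 range of 81.4% to 96.0% found with the main set. Ranges of the other dogs are not given for these alternative sets, so its place among them there is not known. This set was defined after the data had been seen, and 43 of its 48 features passed the low-count filter used for the fits below.

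**Figure D2:**
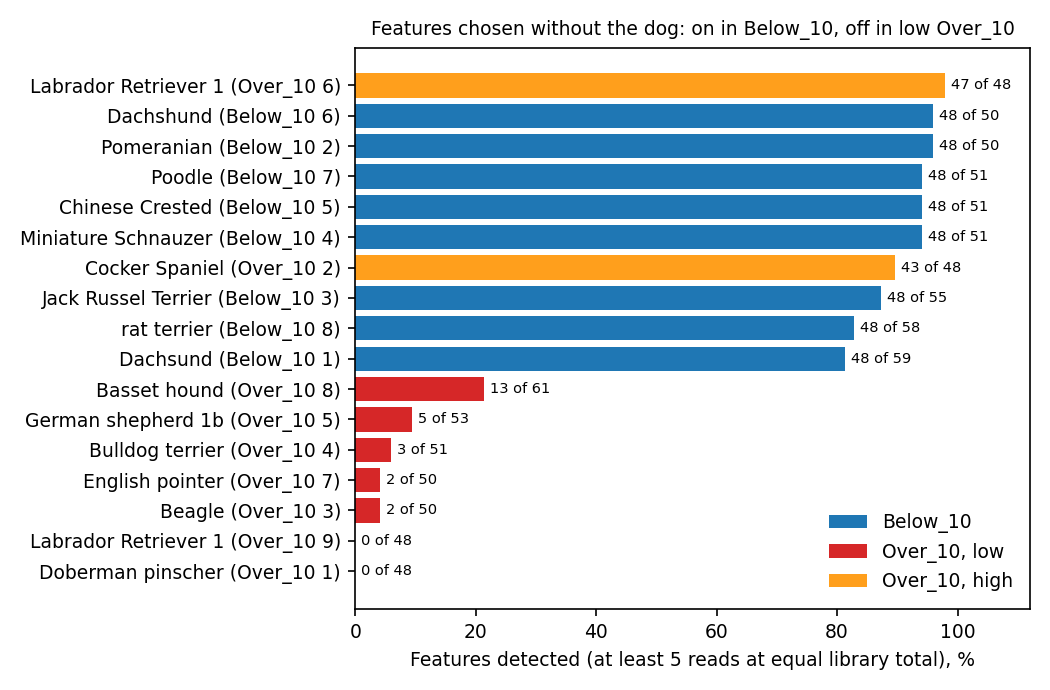
Bars show for each dog the percentage of features with at least 5 reads after thinning to equal library totals, in a set chosen without that dog (on in every other Below_10 dog, off in every other low Over_10 dog); the label gives the count. The young Labrador (47 of 48) and the cocker spaniel (43 of 48) lie among the Below_10 dogs, and no low dog exceeds 13 of 61.

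Judged by level, the young Labrador lay with the small dogs for features lower in large dogs, whereas the cocker spaniel lay between the classes. For features higher in large dogs, both lay nearer the large dogs in most features. Weight class was fitted with batch and scent code by edgeR's quasi-likelihood test on the 15 other dogs. From that fit the 200 Ensembl-style features with the smallest p in each direction were taken. In these 15 dogs weight class and the chromosome 5 division coincide, so the fit served to choose features and its p-values support nothing about the division. For each feature the left-out dog was then set beside the mean log2(CPM + 0.5) of the Below_10 and of the low Over_10 dogs. The other dogs were placed in the same way, each from a fit that also left it out.

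For the 200 features lower in Over_10 (median fitted log2 difference -1.81), the young Labrador lay nearer the Below_10 mean in 140, or 70.0%, and the cocker spaniel in 113, or 56.5%. Below_10 dogs lay nearer their own class in 66.0% to 94.0% of such features (median 77.8%), and low dogs nearer Below_10 in 0.500% to 49.0% (median 7.50%). The young Labrador was therefore inside the Below_10 range, and the cocker spaniel between both ranges. The share of the cocker spaniel did not keep its side of 50%: it was 44.3% with 1000 features per direction, 33.0% with features of at least 5 CPM on average, 49.0% without the beagle and 50% without the English pointer, but 87.0% with features chosen by size and 90.5% in a fit without batch. The median level of the 200 features was 6.72 CPM in the cocker spaniel and 7.24 CPM in the young Labrador, where the medians of the class means were 12.7 CPM for Below_10 and 3.67 CPM for the low dogs. In batch 2 the median was 1.49 CPM in the Doberman pinscher, against 8.66 in the Jack Russel Terrier and 7.28 in the miniature schnauzer. The older Labrador had 3.42 CPM. On the side toward Below_10, the young Labrador was outside the range of all 7 low dogs for 149 of the 200 features and the cocker spaniel for 119, and on the other side for 0 and 28. Both dogs were nearer Below_10 in 78 of the 200, only the young Labrador in 62, only the cocker spaniel in 35 and neither in 25.

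For the 200 features higher in Over_10 (median fitted log2 difference 1.41), the cocker spaniel stayed nearer the large dogs, and the young Labrador lay at the edge of both classes. The young Labrador lay nearer the Below_10 mean in 75 (37.5%) and the cocker spaniel in 30 (15%). Low dogs ran from 1.00% to 40.0% (median 15.5%), so both were inside the range of the low dogs by this share. The Below_10 dogs ran from 40.5% to 97.0% (median 76.5%), and the lowest of them, the miniature schnauzer with 40.5%, was close to the young Labrador. A position of 0 for the mean of the large dogs and 1 for that of the small dogs gave 0.101 for the cocker spaniel and 0.407 for the young Labrador here, against 0.660 and 0.765 for the features lower in Over_10. By position in the features higher in Over_10, low dogs ran from -0.233 to 0.398 and Below_10 dogs from 0.404 to 1.84. The young Labrador was thus above every low dog and just inside the Below_10 range, and the cocker spaniel inside that of the low dogs. On the side toward Below_10, the young Labrador was outside the range of all 7 low dogs for 100 of the 200 features and the cocker spaniel for 45, and on the other side for 0 and 31. The median level of these 200 features was 50.2 CPM in the cocker spaniel and 36.9 CPM in the young Labrador, where the medians of the class means were 29.2 CPM for Below_10 and 49.98 CPM for the low dogs. No test of the difference between the directions was made, as it rests on 2 dogs.

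The directions differed in level as well, with a median of 40.4 CPM over the 17 dogs for the features higher in Over_10 and 8.74 CPM for those lower (CPM, not per length). Split at a mean of 5 CPM, the cocker spaniel lay nearer Below_10 in 76 of 89 weakly expressed features lower in Over_10 (85.4%) but in 37 of 111 stronger ones (33.3%). The young Labrador did so in 69 of 89 (77.5%) and 71 of 111 (64.0%). In the weakly expressed features Below_10 dogs had 74.7% to 93.0% and low dogs 0% to 24.2%, so both exceptions lay inside the Below_10 range by this share. Weakly expressed features lower in Over_10 could pass the low-count filter through the high dogs alone, and both exceptions were among the dogs filtered on. The part of the filter in this placement was not tested. In the stronger features the ranges of the Below_10 and low dogs were 39.0% to 96.1% and 0% to 61.2%, and overlapped. By these shares the cocker spaniel was nearer the small dogs in the weakly expressed features and not in the stronger ones. This split was not particular to it. In their own sets the Pomeranian had 93.0% and 39.0%, and the dachshund of replicate 1 had 84.5% and 48.5%. Both are Below_10 dogs whose libraries, like that of the cocker spaniel, had low TMM factors. The other Below_10 dogs had 61.9% or more in the stronger features. Thinning all libraries to the same total, which does not equalise the counts outside the most abundant features, gave 56.0% for the cocker spaniel and 72% for the young Labrador over all 200 features lower in Over_10. Against its own batch alone the cocker spaniel had 66.5% for these and 29.0% for the features higher in Over_10.

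**Figure D3:**
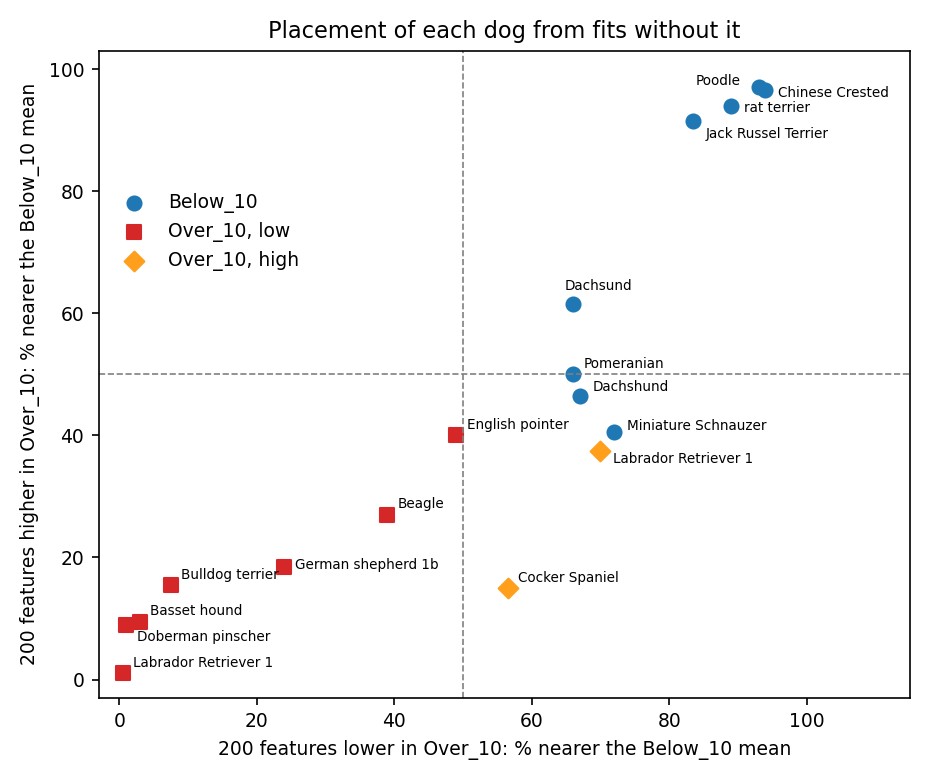
Each point is 1 dog, placed by the percentage of 200 features lower in Over_10 (horizontal axis) and of 200 features higher in Over_10 (vertical axis) for which it lies nearer the Below_10 mean; dashed lines mark 50%. The cocker spaniel (56.5% and 15%) and the young Labrador (70.0% and 37.5%) lie to the right of every low dog, and below every Below_10 dog.

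The labelled weight class was also tested on all 17 dogs, with edgeR's quasi-likelihood test and adjustment over the 16202 features tested. Of 16112 Ensembl-style features 863 (5.36%) were higher and 580 (3.6%) lower in Over_10. Batch is a term of this fit, so the young Labrador, alone in batch 5, adds nothing to the weight coefficient (1444 calls without it), and the cocker spaniel makes the difference from the fit on 15 dogs. Without the cocker spaniel 1080 (6.7%) were called higher and 883 (5.48%) lower, so the lower calls grew from 580 to 883 and the higher from 863 to 1080. Both totals, 1443 and 1963, depended on single dogs. The total of 1443 went to 1 without the bulldog terrier and to 130, 157, 193, 386 and 436 without the Chinese crested, the poodle, the Doberman pinscher, the Jack Russel Terrier and the rat terrier. The total of 1963 went to 132, 246, 415, 71 and 639 without the bulldog terrier, the Chinese crested, the poodle, the Doberman pinscher and the rat terrier. Without a batch term 168 and 1058 were called. The labels tested here are weight class only, and in the fit on 15 dogs weight class and the chromosome 5 division cannot be told apart.

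Ranges are given without a model, as a description that supports no direction, since the dogs were divided by a readout of the same libraries. Between the 7 low and 10 high dogs, 164 Ensembl-style features (1.02%) were lower in every low dog than in any high dog, and 69 (0.428%) were higher. Between the weight classes as labelled, with 9 Over_10 against 8 Below_10 dogs, 26 features (0.161%) were lower in every Over_10 dog and 97 (0.602%) higher. The group sizes differ between these divisions. The 164 were weakly expressed in the low dogs and could pass the low-count filter through the high dogs alone, with a median of their mean levels of 0.231 CPM against 4.72 CPM in the high dogs. For the 69 the medians were 36.8 and 18.2 CPM. The mean difference, low minus high on the log2(CPM + 0.5) scale, had a median of -1.96 over the 164, of 1.23 over the 69 and of -0.01 over all 16112 features. Without the 3 libraries with the lowest TMM factors, among them the cocker spaniel, 334 were lower and 295 higher, so the excess of the first kind was smaller there. Scaled to library totals alone, 138 were lower and 145 higher, which ends that excess.

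Values in single dogs are given for the 2 features in each direction with the smallest p in the fit on 15 dogs, among those with a mean of at least 5 CPM. ENSCAFG00000014698, higher in Over_10, was at 6.63 to 41.5 CPM (median 17.0) in Below_10 and at 42.3 to 75.5 CPM (median 49.9) in the low dogs. The cocker spaniel had 25.5 CPM and the young Labrador 22.8 CPM, so both lay inside the Below_10 range, below every low dog. ENSCAFG00000009634 was at 24.4 to 60.9 CPM (median 34.3) in Below_10 and at 69.2 to 230 CPM (median 101) in the low dogs. Here the cocker spaniel had 70.1 CPM, just inside the range of the low dogs, and the young Labrador 56.0 CPM, inside that of Below_10. For these 2 features the young Labrador was thus with the small dogs, against the majority of the 200 features of that direction.

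ENSCAFG00000032315, lower in Over_10, was at 3.54 to 61.0 CPM (median 22.2) in Below_10 and at 0.236 to 2.22 CPM (median 1.02) in the low dogs. The cocker spaniel had 32.1 CPM and the young Labrador 4.00 CPM, both above every low dog and inside the Below_10 range. The cocker spaniel was inside it only through the Pomeranian and the dachshund of batch 1, as the next Below_10 dog, the poodle, had 23.1 CPM. By position, however, the young Labrador (0.443) lay slightly nearer the mean of the low dogs, and the cocker spaniel (1.28) beyond that of Below_10. ENSCAFG00000000361 was at 25.6 to 86.3 CPM (median 70.9) in Below_10 and at 16 to 34.4 CPM (median 26) in the low dogs, so the classes overlapped through the Pomeranian and the dachshund of batch 1. The cocker spaniel had 31.9 CPM, inside the ranges of both classes. The young Labrador had 38.9 CPM, above the range of the low dogs and inside that of Below_10. Without the Pomeranian and that dachshund the Below_10 dogs started at 48.7 CPM (miniature schnauzer), above both exceptions.

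Over all 17 dogs ENSCAFG00000009634 was higher in Over_10 by 1.70 ± 0.29 log2 units (SE; edgeR adjusted p = 0.0165), from 37.4 ± 14.0 CPM (SD, n = 8) to 111.7 ± 60.6 CPM (n = 9). ENSCAFG00000000361 was lower by a fitted change of -1.39 ± 0.20 (edgeR adjusted p = 0.0165), from 59.8 ± 23.3 to 27.5 ± 7.87 CPM. Both lost the call without the bulldog terrier (adjusted p = 0.0617), and the second also without a batch term (adjusted p = 0.0663). ENSCAFG00000014698 had a change of 1.05 ± 0.27 (edgeR adjusted p = 0.0343), but the call was lost in 11 of the 17 fits without 1 dog, with adjusted p from 0.00320 to 0.100, and without a batch term (adjusted p = 0.0782). ENSCAFG00000032315 did not pass, at -2.04 ± 1.24 (edgeR adjusted p = 0.319), with 32.1 CPM in the cocker spaniel. Without that dog it was -3.86 (edgeR adjusted p = 0.00229), which is no support, as the feature was chosen for its small p in the fit on the same dogs.

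**Figure D4:**
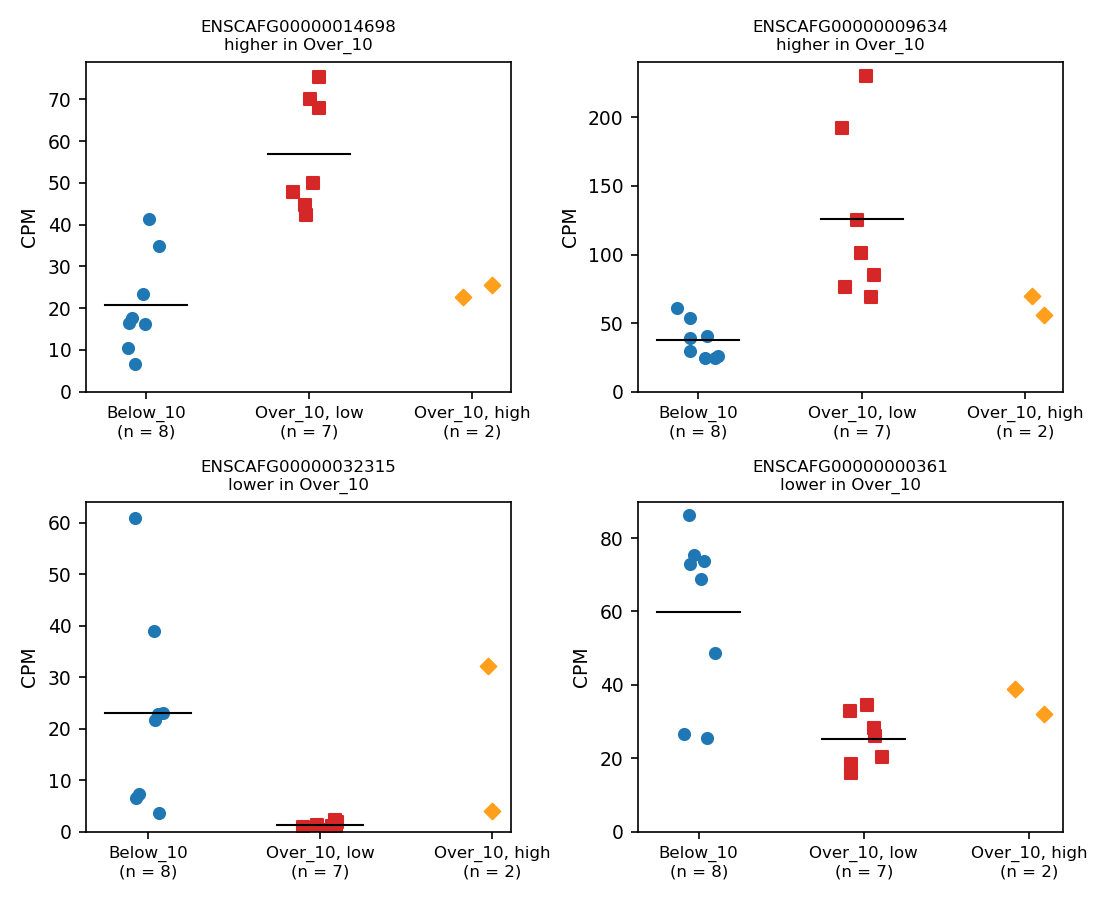
CPM of the 4 named features in each dog, by weight class and division, on linear axes from 0; points are dogs and lines are means of the Below_10 and low Over_10 dogs. Both exceptions lie in the Below_10 range for ENSCAFG00000014698 and ENSCAFG00000032315, and the cocker spaniel lies in the range of the low dogs for the other 2. For ENSCAFG00000000361 the class ranges overlap, and the cocker spaniel lies in both.

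By mean correlation over the whole profile the 2 dogs were closer to the low dogs, though each was most like a Below_10 dog. Spearman's rho over the 16112 tested Ensembl-style features was averaged over dogs, as a description over features that share a library. The cocker spaniel had a mean rho of 0.899 with the 8 Below_10 dogs (0.864 to 0.955) and of 0.918 with the 7 low dogs (0.908 to 0.927). Its most similar library was the Pomeranian (0.955), which shares its low TMM factor, followed by the bulldog terrier (0.927). The young Labrador had a mean rho of 0.915 with Below_10 (0.780 to 0.970) and of 0.954 with the low dogs (0.943 to 0.964). Its most similar library was a dachshund (Below_10 replicate 6, 0.970), then the beagle (0.964), and the older Labrador came eighth (0.947). Without the 2 Below_10 dogs of batch 1 the mean with Below_10 was 0.887 for the cocker spaniel and 0.945 for the young Labrador, still under that with the low dogs. Pairs of Below_10 dogs had a mean rho of 0.888 (0.733 to 0.971) and pairs of low dogs one of 0.961 (0.937 to 0.977), and Below_10 dogs had one of 0.894 (0.736 to 0.971) with low dogs. With the Below_10 dogs of batch 1 included, small dogs were thus no more alike among themselves than to the low dogs on this measure. Pair means without the batch 1 dogs are not given. With the batch 1 dogs included, a higher mean rho with the low dogs therefore does not show that an exception sides with them. Without the batch 1 dogs this was not settled.

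**Figure D5:**
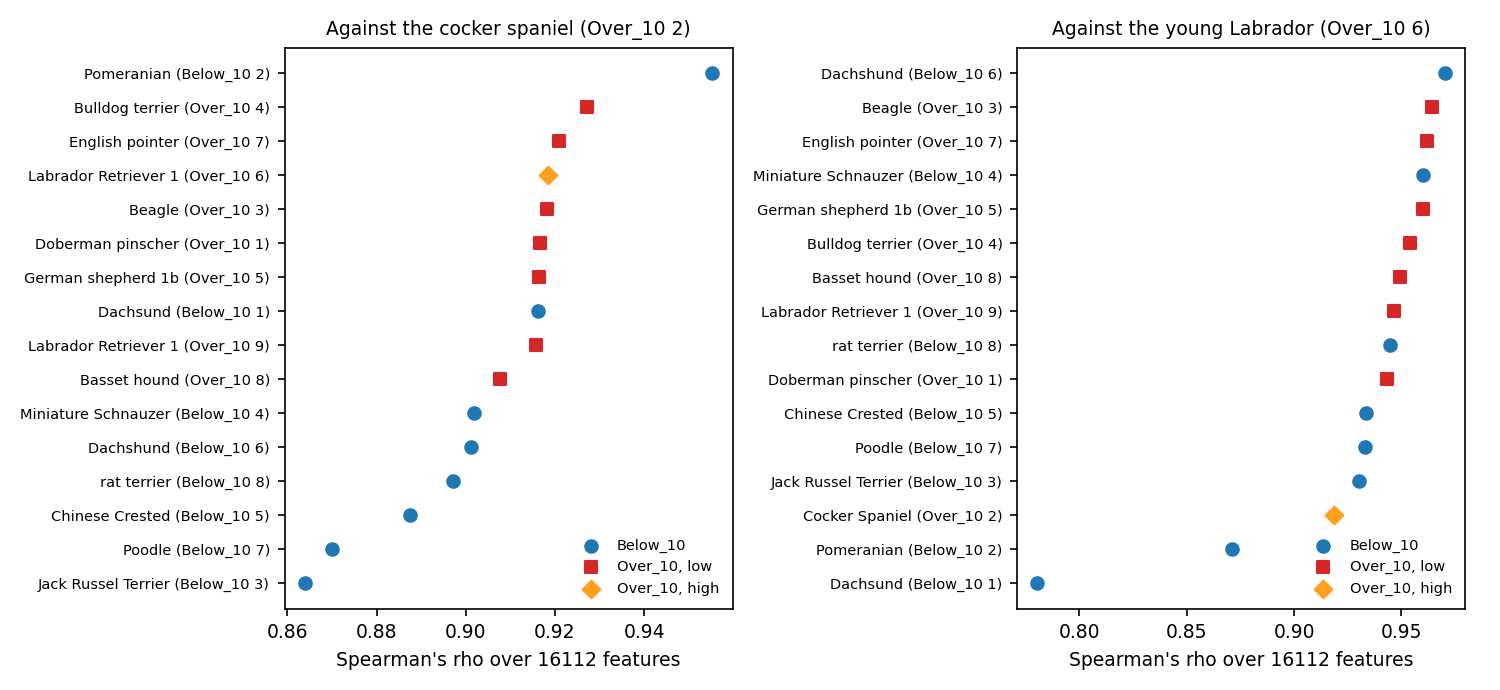
Spearman's rho of the cocker spaniel (left) and the young Labrador (right) with each of the other 16 dogs, in order, over 16112 features; the horizontal axes differ and do not start at 0. Each had its highest value with a Below_10 dog (0.955 and 0.970), while most of the low Over_10 dogs followed above most of the other Below_10 dogs.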

How the data were processed

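The authors deposited raw read counts as whole numbers for 32912 features (32704 with Ensembl-style IDs) in 17 libraries. A second deposited table holds log2 values of 16917 features, with a batch effect taken out per its name, and served only as an alternative. Per the submitters' processing notes, the tools were STAR 2.5.3, Trim Galore 0.3.1, HTSeq, DESeq2, limma and edgeR, with no roles stated. Neither build nor annotation is given in the sources used here.

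The chromosome 5 sum was divided by the library total and scaled to CPM. Features passing edgeR's filterByExpr on the scent groups (minimum count 10; 16202 features) were TMM-scaled and fitted with edgeR 4.0.16 (robust quasi-likelihood F-test, R 4.3.3) on batch, scent code and weight class, with Benjamini-Hochberg adjustment at 0.05. Residual degrees of freedom were 9 with 17 dogs and 8 with 15. The standard error is the log2 change over the square root of F. Named features were, as the files give no gene names, the 2 per direction with the smallest p in the fit on 15 dogs and a mean of at least 5 CPM. Marker lists need gene names and were not run. Between the chromosome 5 divisions features were only described. Dogs were compared for 4 labels by exact permutation tests. The count test was also run on counts simulated without batch or scent effects, so that check does not cover the dependence on single dogs. Alternatives included DESeq2 1.42.0, other scaling, filters, pseudocounts and leaving out dogs. Other steps used pandas 2.3.3, scipy 1.17.1 and numpy 2.4.6 in Python 3.11.15. Members, lists and the split into divisions were chosen with earlier results of these data known. Replicate numbers only name dogs, and p-values measure the spread between these dogs.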

Additional observations from a re-analysis of the deposited data

Results flagged for a closer look

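In each weight class the highest and lowest dog was set against the nearest other dog, relative to the range of the class, for 26 groups of values, of which chance flags about 1 in 20. In Below_10 the Pomeranian stood apart with 104 CPM of chromosome 5 features. The dachshund of replicate 1 stood apart in Below_10 with a total of 31637925 counts and with a RIN of 5.9. In Over_10 the cocker spaniel stood apart with 19.8% of its counts in the 10 most abundant features, and with 32.1 CPM of ENSCAFG00000032315. The part of these values in the placement of the cocker spaniel was not tested beyond leaving out libraries, as given below.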

How the results depend on the processing

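The young Labrador stayed above 50% for features lower in Over_10 and below 50% for those higher under all alternatives run, and the cocker spaniel stayed below 50% for those higher. For features lower in Over_10 the cocker spaniel went to 44.3% with 1000 features per direction and to 33.0% with features of at least 5 CPM on average (an alternative chosen after seeing the data), but to 87.0% with features chosen by size and 90.5% with a fit without batch; the cause was not tested. Leaving out each of the 15 dogs gave 49.0% (without the beagle) to 61.0% there, with 50% without the English pointer. The same ranges were 9.50% to 22.5% for the cocker spaniel in features higher in Over_10, and 67.5% to 79.0% (lower) and 26% to 49.0% (higher) for the young Labrador. Without the libraries of low TMM factor among the 15 dogs, the values for features lower in Over_10 were 57.5% and 70.5%. In the deposited log2 values the cocker spaniel had 55.7% and 21.7%. The young Labrador cannot be placed there, as a batch of 1 dog leaves no level of its own.

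Features called between weight classes numbered 3011 (17 dogs) and 3664 (15 dogs) with DESeq2, and 168 and 1058 without a batch term. Leaving out 1 dog gave 1 (bulldog terrier) to 1963 and 71 (Doberman pinscher) to 2292. Features without overlap between the divisions numbered 145 higher in low dogs with library totals alone, 254 lower without the low-count filter, 295 and 334 without the 3 libraries of lowest TMM factor, and 212 higher without the 2 exceptions. The mean correlation with Below_10 minus that with low dogs was -0.0501 and -0.0883 over the 2000 most variable features, against -0.0184 and -0.0388 over all, for the cocker spaniel and the young Labrador. For the on and off set, the cocker spaniel had 82.5% with 3 reads and 78.7% without the Below_10 dogs of batch 1, and the young Labrador 90.9% with 10 reads. The label tests kept their side of the threshold within batches. No paired analysis was possible because the labels give no replicate numbers: those used here follow accession order and pair no dogs. Batch, which the labels do share between weight classes, is a term of the fits. Depth limits the on and off set: at a total of 10536639 counts per library, a feature under 5 reads is not shown to be absent.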
